A study of Mus musculus with 16 samples.

Results

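Interferon regulatory factors are transcription factors that share a DNA-binding domain recognizing GAAA repeats, and the 8 described here, Irf1, Irf2, Irf3, Irf4, Irf5, Irf7, Irf8 and Irf9, were taken by symbol from the 23337 gene symbols of a count table of blood neutrophils. All 8 were in the table. Irf1, Irf2, Irf3, Irf5, Irf7 and Irf9 had counts and passed the filter on low counts, and Irf4 and Irf8 had 0 counts in all 16 libraries. Neutrophils came from the blood of 8 week old C57/Bl6 mice by magnetic negative selection, and bulk RNA-Seq was carried out on 4 groups. Control littermates (Ltbr fl/fl without Cre) gave 3 unstimulated and 4 stimulated libraries, and LTβRΔN mice (Ltbr fl/fl × Mrp8-Cre) gave 4 unstimulated and 5 stimulated libraries. The loxP-flanked Ltbr alleles, which encode the lymphotoxin beta receptor, were thus shared by all groups, and the Mrp8 promoter expresses Cre in neutrophils and their precursors. According to the treatment protocol the cells were cultured for 2 h in 100 ng/ml TNF, 50 ng/ml IL-6 and 100 ng/ml GM-CSF, and some also in 500 ng/ml soluble LIGHT. The design text of the series names the cytokines themselves as the treatment. Because no label gives the presence of LIGHT for a single library, groups are called stimulated and unstimulated as labelled, and nothing below separates LIGHT from the cytokines.

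In many cell types IRF1 is made on demand after TNF or interferon-gamma signalling, through NF-κB and STAT sites near its start, and IRF2 binds many of the same elements and is best known as its antagonist. IRF3, IRF5 and IRF7 are held in the cytoplasm until kinases downstream of Toll-like receptors or nucleic acid sensors phosphorylate them, after which they turn on interferon genes. IRF9 is the DNA-binding part of ISGF3, the complex that carries the type I interferon signal. IRF4 and IRF8 act mainly in lymphocytes, dendritic cells and monocytes, where they bind DNA with partners such as PU.1.

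Irf1 lies on the plus strand of chromosome 11 (GRCm38, chr11:53770014-53778374) and Irf2 on the plus strand of chromosome 8 (GRCm38, chr8:46739732-46847458). The 250 bases before the RefSeq start of both genes are shown because Irf1 was the 1 factor that changed with stimulation and Irf2 the factor that shares its binding sites (RefSeq sequence, GRCm38.p6, plus strand, chr11:53769764-53770013 and chr8:46739495-46739744). Capitals mark matches to 4 motifs searched on both strands, namely the IRF core AANNGAAA, the tandem IRF element GAAANNGAAA, which contains that core, the STAT element TTCNNNGAA (GAS) and the κB motif of NF-κB.
Irf1: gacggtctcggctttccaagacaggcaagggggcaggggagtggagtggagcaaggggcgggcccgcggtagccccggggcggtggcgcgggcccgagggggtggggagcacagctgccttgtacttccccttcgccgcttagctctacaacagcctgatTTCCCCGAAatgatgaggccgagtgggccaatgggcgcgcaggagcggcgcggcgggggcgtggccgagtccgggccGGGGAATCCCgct
Irf2: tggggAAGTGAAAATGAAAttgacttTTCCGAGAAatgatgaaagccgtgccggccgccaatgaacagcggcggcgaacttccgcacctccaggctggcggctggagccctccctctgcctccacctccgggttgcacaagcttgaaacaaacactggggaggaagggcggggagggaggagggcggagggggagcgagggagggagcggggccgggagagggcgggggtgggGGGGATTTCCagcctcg
The Irf1 stretch held a STAT element from -90 to -82 and a κB match, read on both strands, from -13 to -4, counted from the annotated start. The Irf2 stretch held a κB match at nearly the same place, from -17 to -8, and a STAT element from -224 to -216. In addition, it held a tandem IRF element from -241 to -232 and an IRF core from -245 to -238, which overlaps that element. Of 32851 mouse promoter windows, which run from 250 bases before to 50 bases after the start, 8.46% held the κB motif, 8.30% the STAT element, 23.9% the IRF core and 3.44% the tandem element. In these windows Irf8 held 2 STAT elements and Irf3, Irf4, Irf5, Irf7 and Irf9 held none of the 4 motifs. Matches describe the letters only, and their part in the level of any factor was not tested.

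**Figure D1:**
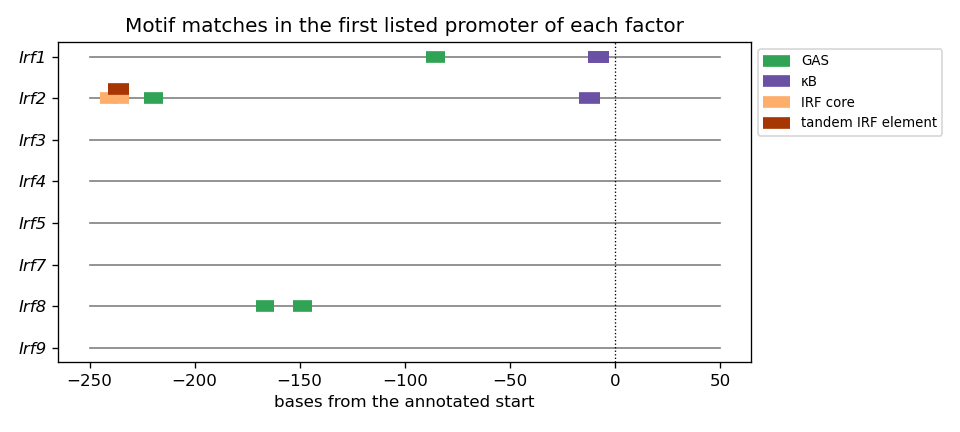
Positions of motif matches in the first listed RefSeq promoter window of each of the 8 genes, in bases from the annotated start (dotted line). Irf1 and Irf2 held both a STAT element (GAS) and a κB match, Irf8 held 2 STAT elements, and the other 5 windows held no match.

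Library totals ranged from 1094335 to 11932653 counts, with the lowest median (2408608) in stimulated LTβRΔN neutrophils. Counts were fitted with edgeR's quasi-likelihood test over the 9213 genes that passed the filter, and levels are counts relative to the TMM-scaled library total (CPM). The labels do not say whether libraries of a group came from separate mice, so p-values measure the spread between these libraries, which may be partly technical. Ltbr averaged 116 ± 33.0 CPM (SD, n = 3) in unstimulated and 109 ± 27.7 CPM (SD, n = 4) in stimulated control neutrophils, against 8.21 ± 3.14 CPM (SD, n = 4) and 8.65 ± 6.74 CPM (SD, n = 5) in LTβRΔN neutrophils. A set of 7 neutrophil genes (S100a8, S100a9, Csf3r, Cxcr2, Mmp8, Mmp9 and Retnlg) summed to between 44990 and 75455 CPM. In such bulk samples, fewer cells of a type and less RNA per cell cannot be told apart.

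Irf1, whose product activates genes of antigen presentation and of the interferon-gamma response, was the factor that rose. In unstimulated control neutrophils its level was 488, 467 and 460 CPM, and in stimulated control neutrophils it was 1610, 1684, 1625 and 1657 CPM. Every stimulated control library was above every unstimulated one, by a gap far wider than the spread within either group. The means were 472 ± 14.7 CPM (SD, n = 3) and 1644 ± 33.2 CPM (SD, n = 4), a 3.48-fold rise with a log2 fold change of 1.80 (SE 0.123, 95% interval 1.55 to 2.06, edgeR adjusted p = 3.59e-10). Irf1 ranked 17th by p among all 9213 genes in this comparison.

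In LTβRΔN neutrophils Irf1 rose as well. Unstimulated libraries had 484, 601, 593 and 610 CPM, and stimulated libraries had 1362, 1667, 1898, 1682 and 1674 CPM. The groups again did not overlap, with the lowest stimulated library at more than double the level of the highest unstimulated one. The means were 572 ± 59.2 CPM (SD, n = 4) and 1657 ± 191 CPM (SD, n = 5), a 2.90-fold rise with a log2 fold change of 1.54 (SE 0.107, 95% interval 1.31 to 1.76, edgeR adjusted p = 3.80e-10).

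The library index moved with treatment. All unstimulated LTβRΔN libraries carried index S520 and all stimulated ones S521, so within this genotype index and treatment cannot be told apart without the controls. In controls 1 unstimulated library carried S521, and its Irf1 level of 460 CPM lay beside the 467 and 488 CPM of the S520 libraries. The log2 ratio of the stimulated mean to this library, all with S521, was 1.84. A covariate for the index can be estimated only from this library against the unstimulated S520 controls. For LTβRΔN neutrophils it assumes the same index effect in both genotypes. With the index as a covariate Irf1 rose by 1.84 (edgeR adjusted p = 2.53e-06) in control and by 1.59 (edgeR adjusted p = 0.000311) in LTβRΔN neutrophils on the log2 scale.

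**Figure D2:**
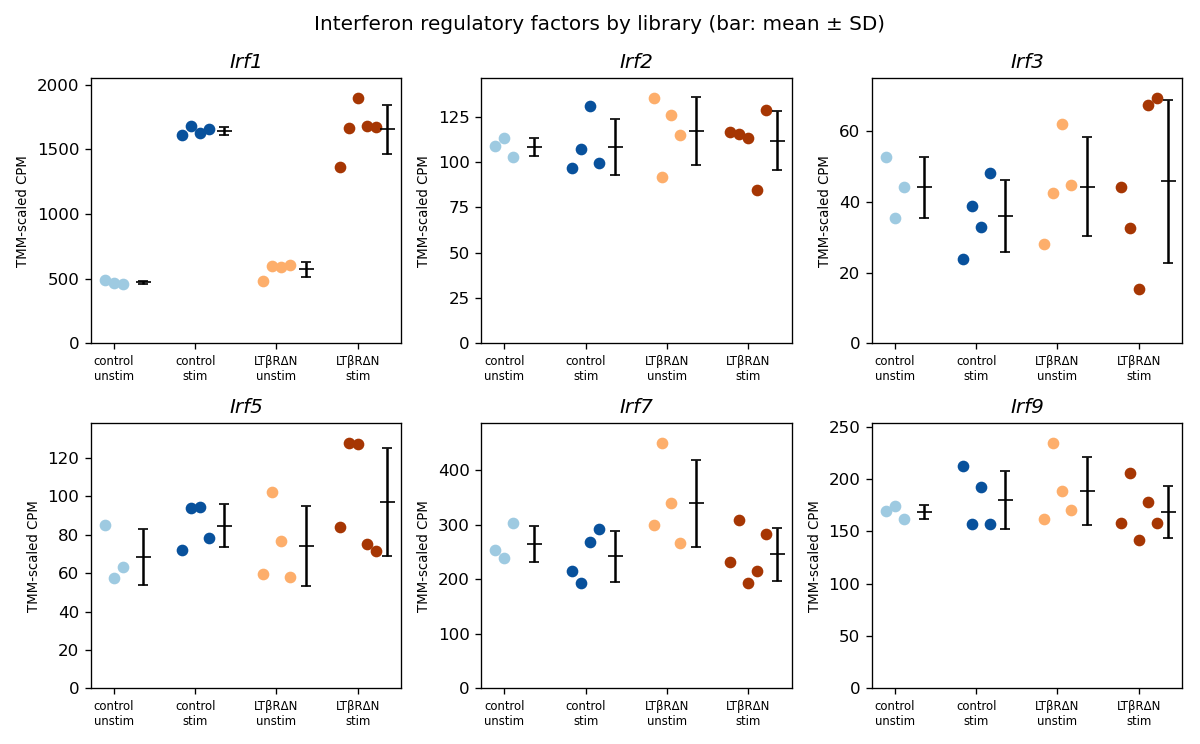
TMM-scaled CPM of the 6 detected factors, 1 point per library, in the 4 groups, with the mean and SD of each group as a bar at its right and every axis starting at 0. For Irf1 all stimulated libraries (1362 to 1898 CPM) sit above all unstimulated libraries (460 to 610 CPM), and for the other 5 factors the stimulated and unstimulated points overlap.

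Irf1 was the 1 of 6 tested factors called higher in each genotype, and 0 of 6 were called lower. Over all tested genes, 2.82% were called higher and 0.662% lower in control neutrophils, and 2.98% and 0.749% in LTβRΔN neutrophils. Stimulated and unstimulated ranges did not overlap for Irf1 alone among the 6 factors in either genotype, whereas 12.7% of all tested genes in control and 7.28% in LTβRΔN neutrophils had ranges that did not overlap. The median log2 fold change of the 6 factors was 0.048 in control and -0.0088 in LTβRΔN neutrophils, and that of all tested genes was -0.024 and -0.028. Both comparisons used the same model but no shared library. Scaling by library totals alone turned the balance of all calls, from 260 higher and 61 lower to 202 higher and 272 lower in control and from 275 and 69 to 216 and 293 in LTβRΔN neutrophils, and shifted the median of all genes to -0.27 and -0.21. Irf1 still rose under that scaling, by 1.55 and 1.35 on the log2 scale.

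Irf2, the antagonist of Irf1, did not pass the test in either genotype. It averaged 108 and 109 CPM in unstimulated and stimulated control neutrophils, with libraries from 103 to 113 and from 96.8 to 131 CPM. In LTβRΔN neutrophils it averaged 117 and 112 CPM, with libraries from 92.0 to 135 and from 84.8 to 129 CPM. Its log2 fold change with stimulation was 0.0036 (95% interval -0.36 to 0.36, edgeR adjusted p = 0.997) in control and -0.073 (95% interval -0.40 to 0.25, edgeR adjusted p = 0.941) in LTβRΔN neutrophils. These intervals leave out a change as large as that of Irf1. The ratio of the per-kilobase levels of Irf1 and Irf2, which does not depend on how libraries are scaled, ran from 7.69 to 8.33 in unstimulated and from 23.1 to 31 in stimulated control libraries. In LTβRΔN neutrophils it ran from 6.65 to 12.1 and from 21.8 to 36.9. In the mean of the control libraries Irf1 thus stood 8.11 times above its antagonist before and 28.6 times after stimulation, per kilobase of merged exons. With the longest coding transcript as the length (chosen after seeing the data) the mean ratios were 5.09 and 17.9.

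Irf7, the factor that amplifies type I interferon production, was the second most abundant. Unstimulated control libraries had 253, 239 and 302 CPM, and stimulated ones 215, 193, 268 and 293 CPM. Unstimulated LTβRΔN libraries had 300, 449, 339 and 267 CPM, and stimulated ones 232, 308, 192, 214 and 283 CPM. The ranges overlapped in both genotypes, and the 449 CPM came from the library with the fewest counts in the series (1094335). The log2 fold change was -0.13 (95% interval -0.52 to 0.26, edgeR adjusted p = 0.935) in control and -0.45 (95% interval -0.80 to -0.10, edgeR adjusted p = 0.191) in LTβRΔN neutrophils, so Irf7 was not called in either. Without the 449 CPM library the LTβRΔN value was -0.29 (edgeR adjusted p = 0.542). It passed the threshold under 2 of 19 other settings, of which 1 was library totals alone (-0.65, edgeR adjusted p = 0.0286), the scaling that shifts the median of all genes down. The other was a block on the number in the column names, whose meaning is not stated (edgeR adjusted p = 0.0177). The block also shifted the median of all genes down, to -0.097 against -0.028 in the main fit. Over both genotypes, Irf7 was lower in the stimulated library of 7 of 7 pairs with the same number (log2 ratios from -0.82 to -0.046). How many of all tested genes were lower in every pair was not counted, so this is a description only.

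Irf3 and Irf5, the other factors that await phosphorylation, had the lowest mean CPM of the detected factors in every group, before any correction for length. Irf3 averaged 44.1 and 35.9 CPM in unstimulated and stimulated control and 44.2 and 45.8 CPM in LTβRΔN neutrophils, with single libraries from 15.5 to 69.3 CPM, the lowest of them resting on 22 counts. Its 95% interval ran from -1.05 to 0.46 in control and from -0.63 to 0.74 in LTβRΔN neutrophils on the log2 scale, so a 1.5-fold fall lies inside both intervals and was not detectable with these libraries. Irf5, which drives inflammatory cytokine genes in macrophages, averaged 68.6 and 84.8 CPM in control and 74.2 and 97.2 CPM in LTβRΔN neutrophils. Its log2 fold changes of 0.30 (edgeR adjusted p = 0.778) and 0.41 (edgeR adjusted p = 0.455) did not pass, and its ranges overlapped. For Irf5, 14.15% of the exon bases are also exon of Tnpo3 on the opposite strand, and the sources used here do not state whether counting used strand, so its reads may be shared. Exon overlap with an annotated neighbour was at most 3.4% for the other detected factors.

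Irf9, the DNA-binding subunit of ISGF3, did not pass the test in either genotype. It averaged 169 and 180 CPM in unstimulated and stimulated control and 189 and 168 CPM in LTβRΔN neutrophils. Its single libraries ranged from 142 to 234 CPM, and all groups overlapped. The log2 fold change was 0.093 (95% interval -0.25 to 0.43, edgeR adjusted p = 0.947) in control and -0.15 (95% interval -0.45 to 0.15, edgeR adjusted p = 0.789) in LTβRΔN neutrophils.

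**Figure D3:**
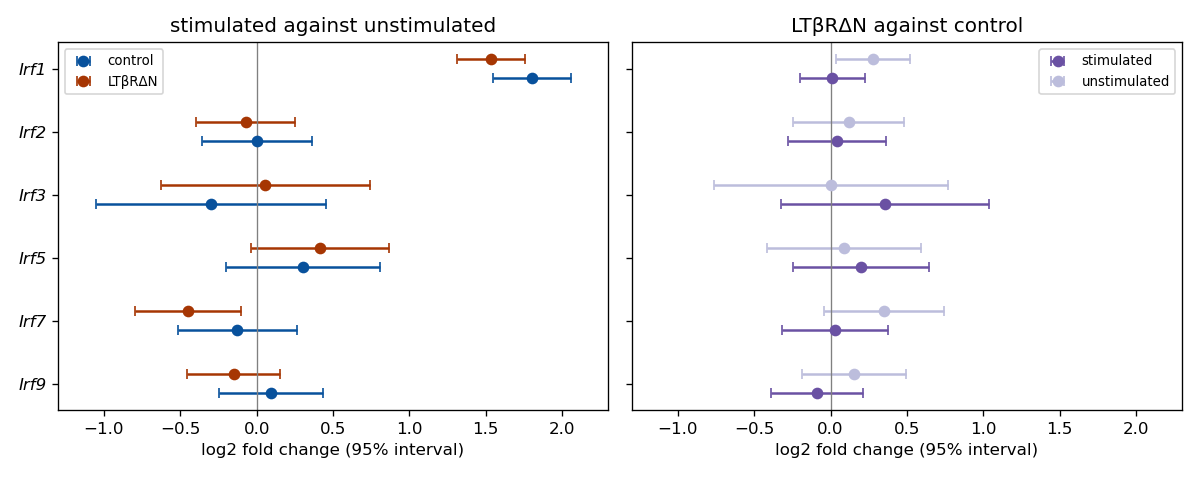
Log2 fold changes of the 6 detected factors (points) with 95% intervals (bars), for stimulated against unstimulated neutrophils in each genotype (left) and for LTβRΔN against control neutrophils in each treatment group (right). Irf1 is at 1.80 and 1.54 in the left panel, apart from the other factors, and in the right panel every point lies between -0.10 and 0.40.

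Irf4 and Irf8 had 0 counts in all 16 libraries, of 98029304 counts in total. A count of 0 allows up to 3 counts, or 0.0306 CPM over all libraries together and 0.251 to 2.74 CPM in a single library, and this limit covers counting error only. In all, 10472 symbols of the table had no count, and Cd3e was among them although Cd3d and Cd3g had 675 and 120 counts, so a symbol at 0 can also be one to which counting assigned no reads. Among cells in which Irf4 and Irf8 are known, B cell and dendritic cell genes were near 0. T cell genes were low but present, and those of monocytes and plasma cells were higher. The B cell list (6 genes) summed to at most 2.3 CPM in any library with Cd79b, Ms4a1 and Pax5 at 0, and the plasmacytoid dendritic cell list (5 genes) to at most 4.79 CPM with Siglech, Klk1 and Cox6a2 at 0. The conventional dendritic cell list (5 genes) summed to at most 7.43 CPM, and the T cell list (6 genes) to between 4.52 and 16.4 CPM. The monocyte list (6 genes) summed to between 341 and 562 CPM, nearly all of it Csf1r and Ly6c2, while Ccr2 had 9 and Cx3cr1 2 counts over all libraries. The plasma cell list (4 genes) moved with stimulation, from 336 to 494 CPM in unstimulated to between 844 and 1318 CPM in stimulated libraries, with Sdc1 at 0 and most of the sum from Xbp1, which neutrophils also express. Stimulated control library 82 stood apart, with 194 CPM of 5 platelet genes (at most 42.7 in any other library), 764 CPM of 6 immature neutrophil genes (at most 317 in any other) and 52.6 CPM of the plasma cell gene Igj. Without it Irf1 rose by 1.81 on the log2 scale in control neutrophils (edgeR adjusted p = 2.17e-09). The part of the plasma cell list in the Irf1 result was not tested.

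Counted per kilobase of merged exons, the order of the factors in unstimulated control neutrophils was Irf1 (119 CPM per kb), Irf7 (70.1), Irf9 (31.3), Irf5 (23.6), Irf2 (14.7) and Irf3 (12.8). Irf1 and Irf7 did not overlap with the next factor in any group. Irf2 and Irf3 overlapped in all 4 groups, and Irf9 and Irf5 in 3 of 4. In stimulated LTβRΔN neutrophils Irf5 was ahead of Irf9 in the mean, but in only 2 of 5 libraries. Merged exons are longer than a single transcript, and with the longest coding transcript as the length Irf2 moved above Irf5 in all groups, whereas Irf1 and Irf7 remained first and second and Irf3 last. The 6 factors summed to 271 ± 11.3 CPM per kb (SD, n = 3) in unstimulated and 565 ± 14.5 CPM per kb (SD, n = 4) in stimulated control neutrophils. Irf1 made up 43.8% ± 1.64 (SD, n = 3) of that sum before and 73.2% ± 1.95 (SD, n = 4) after stimulation. In LTβRΔN neutrophils its share was 44.8% ± 4.18 (SD, n = 4) and 72.4% ± 3.38 (SD, n = 5). The share of Irf7 went from 25.8% to 11.3% in control and from 27.6% to 11.4% in LTβRΔN neutrophils in the means. Its own level was not called as changed in either genotype, while the sum that the share is taken of grew with Irf1.

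**Figure D4:**
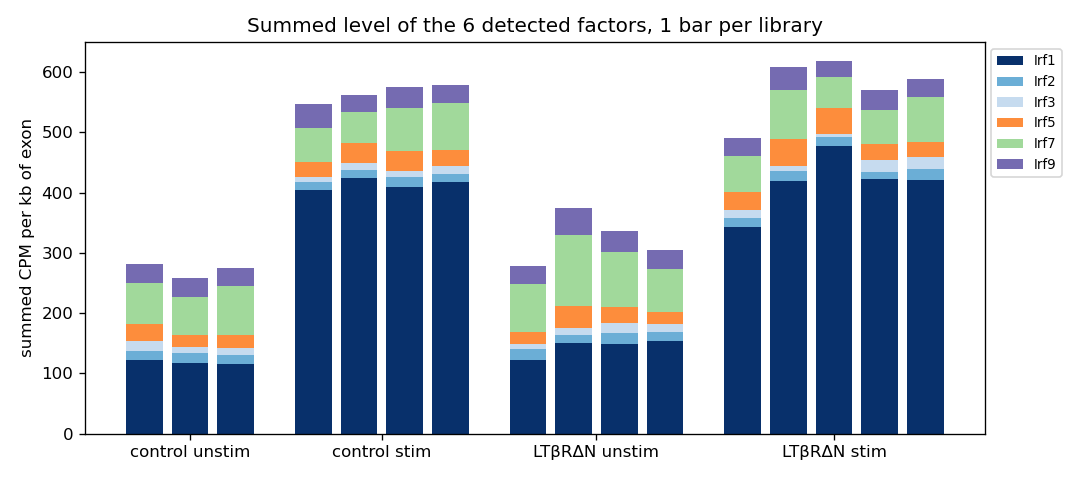
Summed level of the 6 detected factors in CPM per kb of merged exon, 1 stacked bar per library grouped by genotype and treatment, with 1 colour per factor. Unstimulated libraries reach 259 to 374 and stimulated libraries 491 to 618 CPM per kb, and the dark Irf1 segment is the part that grew.

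Between LTβRΔN and control neutrophils 0 of 6 factors were called by edgeR, in stimulated or in unstimulated cells, against 0.0217% of all tested genes in each comparison. DESeq2's Wald test called 0 of 6 as well, against 0.152% of all genes in stimulated and 0.0434% in unstimulated cells. No factor had ranges that did not overlap (1.31% of all genes in stimulated and 5.71% in unstimulated cells). At an unadjusted p under 0.05 there were 0 of 6 factors in stimulated cells, against 6.41% of all genes, and 1 of 6 in unstimulated cells, against 2.80%. That factor was Irf1, with a log2 fold change of 0.28 in unstimulated LTβRΔN neutrophils (95% interval 0.033 to 0.52, edgeR adjusted p = 1). Of the 4 LTβRΔN libraries, 3 were above all control libraries and 1, at 484 CPM, was among them. In stimulated cells the Irf1 difference was 0.011 (95% interval -0.20 to 0.22, edgeR adjusted p = 0.996).

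Irf7 had a log2 fold change of 0.35 (95% interval -0.045 to 0.74) in unstimulated and 0.027 (95% interval -0.32 to 0.37) in stimulated LTβRΔN against control neutrophils. The other factors differed by 0.0031 to 0.15 in unstimulated and by -0.091 to 0.36 in stimulated cells. Both the stimulated and the unstimulated comparison of Irf1 used libraries that also entered the treatment comparisons.

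The response itself was also compared between genotypes. The interaction term of Irf1, the rise in LTβRΔN minus the rise in control neutrophils, was -0.27 on the log2 scale (SE 0.155, 95% interval -0.59 to 0.057, edgeR adjusted p = 0.9999). For the 6 factors 0 interactions were called and 0 had an unadjusted p under 0.05, where 0% and 3.71% of all tested genes did. The interval for Irf1 leaves room for a smaller rise in LTβRΔN neutrophils and for an equal one. Stimulated means were 1644 CPM in control and 1657 CPM in LTβRΔN neutrophils, and unstimulated means were 472 and 572 CPM. The difference between genotypes was not called in stimulated or in unstimulated cells.

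Around the factors, changes were read from 7 lists of related genes. The shares of all tested genes called by edgeR, to be set beside each list, are the 2.82% higher and 0.662% lower in control and the 2.98% and 0.749% in LTβRΔN neutrophils given above, and DESeq2 called 4.65% and 5.21% in either direction. Among the interferons, Ifnb1, Ifng and Ifna4 had 0 counts in all 16 libraries. The 5 receptor genes of that list were tested, and 0 of 5 were called by edgeR or DESeq2 in either genotype (0 in control and 1 in LTβRΔN neutrophils at an unadjusted p under 0.05), with log2 fold changes from -0.43 to 0.97 in control neutrophils. Of 19 tested genes for Toll-like receptors, sensors, adaptors and kinases upstream of IRF3, IRF5 and IRF7, 4 were called higher and 0 lower by edgeR in each genotype. They included Myd88, the adaptor of most Toll-like receptors (log2 fold change 0.77 in control and 0.74 in LTβRΔN neutrophils), and Traf6, a ubiquitin ligase further downstream (2.31 and 1.45). The others were Tlr4, the endotoxin receptor (0.76 and 0.94), and E330016A19Rik, the older symbol of the DNA sensor cGAS (3.41 and 3.63). E330016A19Rik was low in unstimulated cells, at a mean of 2.14 CPM in control and 1.53 CPM in LTβRΔN neutrophils. With the library index as a covariate it was called in neither genotype (edgeR adjusted p = 0.0699 and 0.136). Tlr4 in control neutrophils was called in 6 of 17 other settings, and not once any of control libraries 71, 72, 73, 81 or 82 was left out (0.63 to 0.86). Tlr3 and Tlr9 had 0 counts.

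Of 8 genes of the JAK-STAT arm in which IRF9 works, 3 were called higher in control and 2 in LTβRΔN neutrophils. Jak2, the kinase of the GM-CSF receptor, rose by 1.32 and 1.55 on the log2 scale, and Socs1, an inhibitor of that kinase family, rose by 2.58 and 1.68. With the library index as a covariate neither was called, at 1.14 and 1.28 for Jak2 (edgeR adjusted p = 0.211 and 0.442) and at 2.21 and 1.09 for Socs1 (edgeR adjusted p = 0.0614 and 0.9999). Ptpn2, a tyrosine phosphatase, rose by 1.31 in control neutrophils and was at 0.73 (edgeR adjusted p = 0.175) in LTβRΔN neutrophils, with an interaction of -0.58 (SE 0.389, edgeR adjusted p = 0.9999). Without control library 73 it was at 1.19 (edgeR adjusted p = 0.0729) in control neutrophils. Stat2, a partner of IRF9, was not called, at -0.22 in control and 0.20 in LTβRΔN neutrophils.

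Known targets were described by the same edgeR test. Among 19 tested targets of ISGF3 and IRF7, such as the Ifit and Oas genes, 1 was called higher and 0 lower in each genotype. Their median log2 fold change was -0.14 in control and -0.18 in LTβRΔN neutrophils. That gene was Cxcl10, a chemokine gene that NF-κB also drives, which went from 2.04 to 185 CPM in control and from 1.42 to 133 CPM in LTβRΔN neutrophils (log2 fold changes 6.62 and 7.17). DESeq2 called 1 of the 19 in control and 2 in LTβRΔN neutrophils. Among 17 tested targets of IRF1, such as the guanylate-binding proteins, the immunoproteasome and the Tap transporters, 1 was called higher and 0 lower in each genotype, with medians of -0.045 and 0.040. That gene was Cd274, which encodes PD-L1 and went from 33.3 to 506 CPM and from 45.0 to 470 CPM (log2 fold changes 3.92 and 3.39, edgeR adjusted p = 1.13e-10 and 1.22e-10). B2m, Psmb8 and Tap1, which were well measured, had log2 fold changes of -0.045, 0.12 and -0.081 in control neutrophils, named after their values were seen. DESeq2 called 1 of the 17 in control and 2 in LTβRΔN neutrophils. Beside the shares over all genes, counts this small are not a result about either list of targets.

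Of 5 genes for corepressors and regulators of the factors, Irf2bp2, a corepressor that binds IRF2, was called higher in control neutrophils (log2 fold change 1.81, edgeR adjusted p = 0.0177). It was not called by edgeR in LTβRΔN neutrophils (1.27, edgeR adjusted p = 0.0859), where DESeq2 called 1 of the 5 genes, with group means of 8.90 to 31.4 CPM and an interaction of -0.54 (SE 0.576, edgeR adjusted p = 0.9999). In control neutrophils the call was lost without library 71 (1.73, edgeR adjusted p = 0.108) or 73 (1.44, edgeR adjusted p = 0.127). Of 8 tested DNA-binding partners of IRF4 and IRF8, Junb was called higher in both genotypes (1.47 and 1.09). Sfpi1, the older symbol of the gene for PU.1, was lower in LTβRΔN neutrophils (-0.33, edgeR adjusted p = 0.0319), a call that 10 of 19 other settings did not make (-0.35 to -0.27 in those 10), and was at -0.16 in control neutrophils. With the index as a covariate, 5 of the 11 list genes called in control and 7 of the 10 called in LTβRΔN neutrophils lost their call. Myd88, Cxcl10 and Cd274 kept it in both. That covariate rests on control library 73 and assumes the same index effect in both genotypes. The fold changes did not all shrink, as E330016A19Rik went from 3.41 to 3.90 and Ptpn2 from 1.31 to 1.58 in control neutrophils and Traf6 from 1.45 to 2.38 in LTβRΔN neutrophils, while Junb went from 1.09 to 0.53 there. Of the 81 tested genes of the lists, 0 were called between genotypes or in the interaction by edgeR or DESeq2, and 4 in stimulated cells, 6 in unstimulated cells and 2 in the interaction had an unadjusted p under 0.05.

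**Figure D5:**
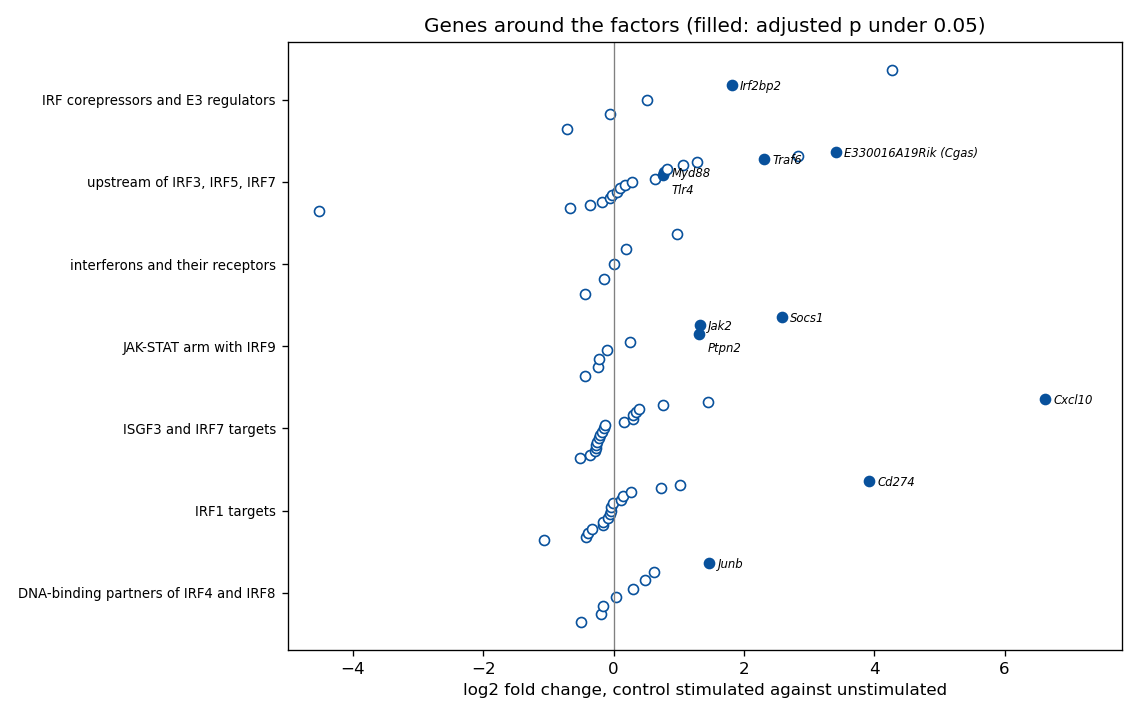
Log2 fold change of each tested gene of the 7 lists in stimulated against unstimulated control neutrophils, 1 row per list, with genes in a row spread by rank and filled points for edgeR adjusted p under 0.05. Most targets of ISGF3, IRF7 and IRF1 lie near 0, and Cxcl10 (6.62) and Cd274 (3.92) stand at the right.

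The genes whose log2 CPM over the 16 libraries was most like that of Irf1 were Sod2, the mitochondrial superoxide dismutase (Pearson's r = 0.992), Bcl2a1d, a survival gene of the Bcl2 family (0.992), and Tnfaip3, which encodes the NF-κB inhibitor A20 (0.989). These points share libraries and the treatment, and with group means removed r was 0.646, 0.660 and 0.128. Irf7 was most like Oas3 (0.887), Dennd1c (0.793) and Rnh1 (0.787), and for Oas3, an interferon-inducible antiviral gene, r was 0.857 with group means removed. For Irf2 the closest were Snx2, Prkch and Tsc1, for Irf3 Drg1, Rbl2 and Zmym1, for Irf5 Ncf1, Kbtbd7 and C5ar1, and for Irf9 Selplg, Laptm5 and Zfp54, with r from 0.755 to 0.837. Each is the highest of many correlations over the same 16 libraries, which differ in depth, and is given as a description.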

How the data were processed

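Bulk RNA-Seq of blood neutrophils was carried out in 16 libraries of 4 groups, and the authors deposited raw counts of reads for each gene symbol. The submitters' processing notes name Bowtie 1.0.0, TopHat 1.4.1, HTSeq 0.7.1 and mm10, and strandedness is not given in the sources used here. Totals of 1094335 to 11932653 counts set the precision. Genes were filtered with filterByExpr (minimum count 10, minimum total 15) and fitted with edgeR 4.0.16 in R 4.3.3 (TMM factors, 1 coefficient per group, all libraries, quasi-likelihood test), and Benjamini-Hochberg adjusted p-values under 0.05 over all 9213 tested genes counted as called. CPM used TMM factors, and for correlations CPM were put on the log2 scale after adding a prior count of 2. Gene places and lengths came from GENCODE M21 (GRCm38), which matched 20929 symbols, and promoter sequences from RefSeq. List genes missing under their current symbol were looked up under older symbols. The scripts were tested on simulated data. Same-group libraries differed by more than sampling noise (chi-square per degree of freedom 6.82 to 49.4 over 25 pairs).

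The factors and gene lists were chosen with earlier results of these data known. All 8 factors are named in every comparison, from each list the called genes (at most 4 per direction), and per factor the 3 genes with the highest correlation. Stat2, B2m, Psmb8 and Tap1 were named outside this rule. Some genes of the lists are not reported here. Alternatives were DESeq2 size factors, upper-quartile factors, library totals, other filters, DESeq2 1.42.0, the compared groups only, the library index, a block on the column number, and each library left out.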

Additional observations from a re-analysis of the deposited data

Results flagged for a closer look

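Irf1 in unstimulated LTβRΔN neutrophils had 1 library apart from the others, at 484 CPM against 593 to 610 CPM in the other 3 libraries. The gap made up 0.875 of the range of the group, above Dixon's 95% critical value. Of 18 combinations of factor and group examined, 1 was singled out, and chance singles out about 1 in 20, or 0.9 here.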

How the results depend on the processing

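Irf1 rose with stimulation and passed the threshold under all 17 other settings in control (log2 fold change 1.55 to 1.84) and all 19 in LTβRΔN neutrophils (1.35 to 1.60). The number of factors called between genotypes or in the interaction stayed at 0 under every setting run. In LTβRΔN neutrophils 2 factors were called under library totals alone and under the block, Irf1 and Irf7 in both, and leaving out single libraries gave 1 throughout. Irf7 was at -0.65 and -0.51 there (edgeR adjusted p = 0.0286 and 0.0177). The block used the number in the column names, whose meaning is not stated. Libraries with the same number correlated at 0.021 to 0.069 over 7 pairs, below the 0.1 set for pairing, and 6 of 7 correlated best with their own number, a hint from the data only. Irf7 was lower in the stimulated library of 7 of 7 same-numbered pairs and Irf1 higher in 7 of 7. The share of all tested genes that did so was not counted. The block called 1 factor in control neutrophils and changed no other call of a factor.

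Reversals touched factors that were not called. For stimulation, Irf2 in control neutrophils was at -0.045 with upper-quartile factors, -0.25 with library totals, -0.0036 with every gene with 1 count, -0.099 under the block and -0.098 without libraries 79 and 82, which share no number (a setting chosen after seeing the data), and -0.098 to 0.057 with single libraries left out. Irf9 there was at -0.16 with library totals. In LTβRΔN neutrophils Irf2 was at 0.037 with the index as a covariate and -0.17 to 0.011 with single libraries left out, and Irf3 at -0.13 with library totals, -0.20 under the block, -0.14 without libraries 79 and 82 and -0.14 to 0.27 with single libraries left out. Between genotypes, leaving out single libraries gave -0.042 to 0.074 for Irf1, -0.014 to 0.14 for Irf2 and -0.071 to 0.13 for Irf7 in stimulated cells, and -0.21 to 0.18 for Irf3 (-0.044 with library totals) and -0.082 to 0.27 for Irf5 in unstimulated cells. The interaction ran from -0.17 to 0.026 for Irf2 and from -0.073 to 0.29 for Irf5. The causes were not tested.

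Over all genes, the index covariate gave 157 calls in place of 321 in control and 79 in place of 344 in LTβRΔN neutrophils. That covariate rests on control library 73, the unstimulated library with S521. The 2 genes called between genotypes became 14 with the DESeq2 Wald test and 1 with 10 counts in every library in stimulated cells, and 1 to 6 over those settings, every gene with 1 count and the removal of control library 71 in unstimulated cells. The intervals of Irf3 were the widest of the 6 factors.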
